A study of Mus musculus with 6 samples.

Results

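Autophagy was followed here through 8 of its core genes, ATG9A, SQSTM1, MAP1LC3B, ATG5, ATG7, BECN1, ULK1 and ATG16L1, taken by their human Ensembl identifiers. They are 8 of 15234 loci in the data and carry 227 of 175743 transcript events. ATG9A was chosen by the FPKM of exon events at its 5′ end, which were higher in all ZLD1039 tumours, so its values in that contrast are a description and were not tested. The other 7 were taken for their function. The tumours were subcutaneous grafts of A375, a human melanoma line, in BALB/c nude mice. The ZLD1039 group got that EZH2 inhibitor by gavage at 100 mg/kg every day, the vehicle group got the carrier alone by the same schedule, and both were sampled on day 27 (3 tumours in each group, 6 in all). All tumours came from 1 cell line with a wild-type label and grew in hosts without a normal T cell compartment; the labels do not tie each tumour to a mouse of its own, so a p-value here reflects only how much these tumours vary, which may be partly technical. In bulk tumour RNA, fewer cells of a type and less RNA per cell cannot be told apart.

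Autophagy encloses cytoplasm in a double membrane, the autophagosome, and delivers it to the lysosome for breakdown. A kinase complex around ULK1 starts the process, a lipid kinase complex that contains BECN1 marks the membrane, and vesicles carrying ATG9A bring membrane to it. ATG7, ATG5 and ATG16L1 then act in the conjugation steps that fix LC3, the product of MAP1LC3B, to the growing membrane, where receptors such as p62, the product of SQSTM1, hold the cargo. In melanoma, as in other tumours, autophagy is known both as a brake on early growth and as a support of established tumours under stress.

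Abundance was read in FPKM, fragments scaled to transcript length and to the mapped total of the library, with 1 value for each transcript event. An event is a start site, an end site, a skipped or included exon, a retained or spliced intron or an alternative exon end. For a locus, start sites and end sites were each summed, and the highest of these sums and of its single events was taken. Events with no abundance are not listed in a tumour and were set to 0, and the depth of sequencing is unknown. The tumours listed 117347 to 126622 events each. ZLD1039 tumour 2 stood apart: it listed the fewest events, its locus values correlated least with those of the other tumours (mean r 0.950, against 0.959 to 0.964), and on the first principal component it scored 51.9 where the others scored -13.3 to -4.02. Positions are printed as the files give them, on human chromosomes. No table of human gene names or genome was used here, so melanoma markers, host cell markers and further autophagy genes could not be matched, and mouse reads that were placed on the human genome cannot be told apart.

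ATG9A encodes a membrane-spanning protein of the core autophagy machinery, a lipid scramblase carried on small vesicles. The abundance of its locus was similar in the groups while the forms of its 5′ end were not. The locus (ENSG00000198925, chromosome 2, 220075103 to 220094439, minus strand) stood at 24.2, 20.3 and 21.7 FPKM in ZLD1039 tumours 1, 2 and 3, against 17.4, 23.0 and 18.4 FPKM in the vehicle tumours. The groups overlapped, since vehicle tumour 2 lay above ZLD1039 tumours 2 and 3. The means were 22.0 ± 1.96 and 19.6 ± 2.99 FPKM (SD, n = 3 each), a log2 difference of 0.17 on the scale of log2(FPKM + 1), and of 0.09 without vehicle tumour 1, 0.10 without ZLD1039 tumour 1 and 0.28 without vehicle tumour 2. The locus value includes a downstream stretch that no listed event joins to the 5′ end. Starts of the upstream stretch alone summed to 15.7, 15.2 and 15.2 FPKM, against 11.3, 16.3 and 12.8 FPKM, and also overlapped.

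The events that led to the pick all include the same exon, 165 bases long, a multiple of 3 (220093732 to 220093896). In transcripts with it, the exon is spliced to a first exon that lies upstream, at 220094257 to 220094439. Transcripts of this form stood at 11.0, 9.45 and 11.3 FPKM in the ZLD1039 tumours, against 0.031, 0.022 and 0.033 FPKM in the vehicle tumours. The form was thus prominent in each ZLD1039 tumour and close to 0 in each vehicle tumour. The 5 listed events that contain the exon carry identical values and are 1 measurement, not 5.

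The vehicle tumours did not share 1 alternative form. A second form begins at the exon itself, with a first exon of 333 bases that contains the whole 165-base stretch (220093732 to 220094064). It stood at 4.17, 4.54 and 3.44 FPKM in the ZLD1039 tumours, against 11.0, 4.51 and 12.5 FPKM in vehicle tumours 1, 2 and 3. The third form starts at the upstream first exon and skips the 165-base exon. It stood at 0.022, 0.537 and 0.036 FPKM in the ZLD1039 tumours, against 0.015, 11.1 and 0 FPKM in the vehicle tumours. Among these 3 forms, vehicle tumours 1 and 3 thus held almost only the start at the exon, which took 63.1 and 67.6% of all summed starts of the locus there, while vehicle tumour 2 used the upstream start at 11.4 FPKM, as high as the ZLD1039 tumours at 11.3, 9.98 and 11.4 FPKM, but without the exon.

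**Figure D1:**
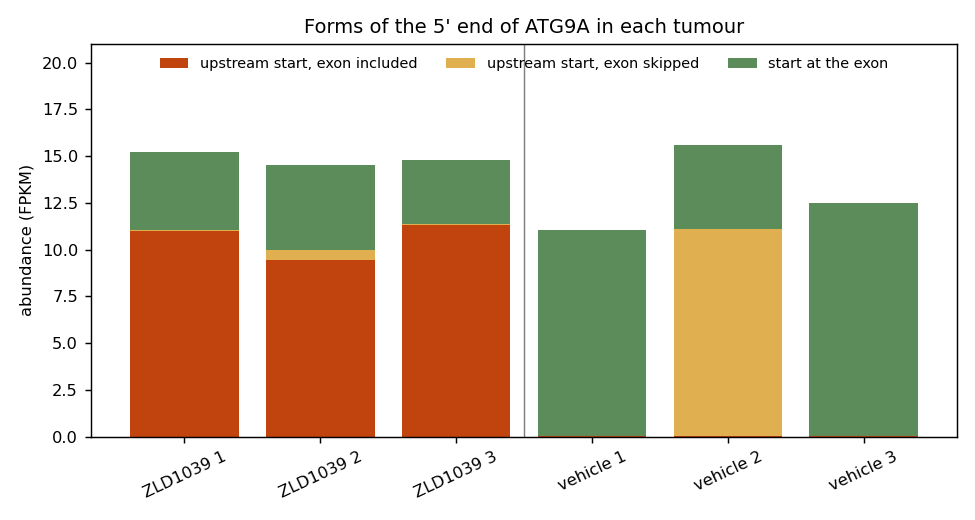
Stacked bars give the abundance in FPKM of 3 forms of the ATG9A 5′ end in each tumour, with the ZLD1039 tumours on the left and the vehicle tumours on the right. The form with the upstream start and the exon fills 9.45 to 11.3 FPKM of each ZLD1039 bar, while vehicle tumours 1 and 3 show the start at the exon and vehicle tumour 2 the skipped form.

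Of the summed abundance of the 3 forms, the form with the upstream start and the exon took 72.4, 65.1 and 76.5% in the ZLD1039 tumours, against 0.28, 0.14 and 0.26% in the vehicle tumours. The start at the exon took 27.4, 31.2 and 23.2%, against 99.6, 28.9 and 99.7%. The sum itself differed less than its parts, at 14.8 ± 0.34 FPKM in ZLD1039 and 13.0 ± 2.32 FPKM in vehicle tumours (SD, n = 3 each). The next exon downstream, common to the forms (220093156 to 220093207), stood at 14.8 ± 0.35 and 13.0 ± 2.32 FPKM. Exon inclusion in percent is a poor summary here: it was 99.5, 94.6 and 99.4% in the ZLD1039 tumours and 67.9, 0.19 and 50.5% in the vehicle tumours, but the totals behind it in vehicle tumours 1 and 3 were only 0.046 and 0.065 FPKM. Of the 49 ATG9A events with a group mean of at least 1 FPKM, 6 (12.2%) lay higher in all ZLD1039 than in all vehicle tumours, beside 5.36% of all events tested, and these include the 5 that fixed the pick. The other 1 was the splice of the 52-base exon at 220093156 to the 165-base stretch, at 15.2, 13.9 and 14.8 FPKM in ZLD1039 and 11.0, 4.51 and 12.5 FPKM in vehicle tumours. This splice is shared by the first and the second form, and vehicle tumour 2 is its low value. It thus follows in part from the pick, and the 12.2%, taken over events of the whole locus, adds nothing to the pick.

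The ATG9A locus of the files holds a pair of stretches that no listed event spans. The upstream stretch (220086772 to 220094439) and the downstream stretch (220075103 to 220083198) hold 48 events each and lie 3573 bases apart. As background, the gene ABCB6, which encodes a porphyrin transporter, follows ATG9A on the same strand, and the files attach the ATG9A identifier to the whole locus. The largest event of the upstream stretch stood at 15.6, 14.5 and 14.9 FPKM in the ZLD1039 tumours, against 11.1, 16.0 and 12.6 FPKM in the vehicle tumours. In the downstream stretch the largest event of each tumour stood at 5.70, 5.25 and 4.78 FPKM, against 4.45, 4.35 and 3.56 FPKM. These values are not of the same event in all tumours, so they do not compare the groups. The exon end at 220081086 to 220081187 stood at 5.70, 3.21 and 4.78 FPKM, against 2.95, 3.42 and 2.93 FPKM. That at 220075103 to 220075197 stood at 3.90, 4.31 and 3.41 FPKM, against 4.45, 4.35 and 3.56 FPKM. The groups overlapped at each. Summed starts of the downstream stretch came to 8.43, 5.10 and 6.52 FPKM in ZLD1039 and 6.09, 6.74 and 5.64 FPKM in vehicle tumours, and they are part of the locus value given above. In that stretch ZLD1039 tumour 2 differed from the other 5: it included an exon of 138 bases (220082392 to 220082529) at 8.67%, while the others included it at 84.5 to 100%. A neighbouring exon of 181 bases (220081374 to 220081554) was included at 100% in each ZLD1039 tumour, on totals of 5.54, 0.234 and 4.78 FPKM, against 95.3, 91.7 and 93.9% in the vehicle tumours. The intron at 220075197 to 220075433 was retained at 24.3, 21.8 and 0.016% in the ZLD1039 tumours, against 26.6, 36.8 and 21.7% in the vehicle tumours, with ZLD1039 tumour 3 as the low value.

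The 2 loci with an Ensembl identifier whose pattern over the 6 tumours was closest to that of the ATG9A locus were ENSG00000261373 on chromosome 16 (Pearson r 0.997) and ENSG00000035115 on chromosome 2 (r 0.982), with Spearman rho of 1 for both. They were the nearest of 10833 loci compared over only 6 tumours, so high values are found by the search itself, and no gene names are paired with them in the files. ENSG00000261373 stood at 7.17, 5.33 and 5.84 FPKM in the ZLD1039 tumours, against 3.75, 6.75 and 4.14 FPKM in the vehicle tumours, with vehicle tumour 2 as the high vehicle value, as in ATG9A.

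No change in abundance was called for the other 7 genes. In the fit over all 10834 loci with a group mean of at least 1 FPKM, which all 8 loci passed, limma called 0 of the 7, against 0.0185% of all loci, and 0 of the 7 had an unadjusted p under 0.05, against 4.94% of all loci (adjusted p 0.881 to 0.887, limma with Benjamini-Hochberg adjustment; no count tool can be used on these values). The log2 difference was above 0 for 5 genes and below 0 for 2, with a median of 0.34 beside 0.02 for all tested loci. The standard errors reached from 0.17 to 0.47, and a change of 2-fold, up or down, lies inside the 95% intervals of SQSTM1, MAP1LC3B, ATG16L1 and ULK1.

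**Figure D2:**
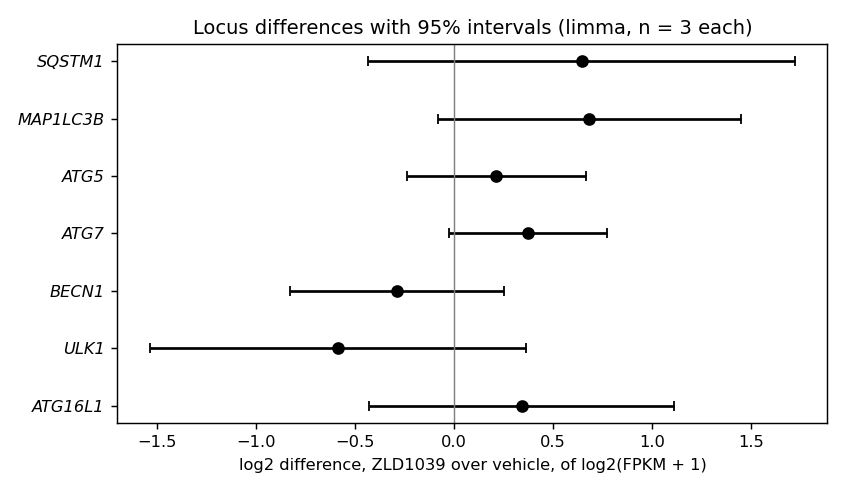
Points give the log2 difference, ZLD1039 over vehicle, of log2(FPKM + 1) for the 7 genes that were tested, and bars the 95% interval from limma (n = 3 tumours in each group). Each interval contains 0, and those of SQSTM1 (-0.43 to 1.72) and ULK1 (-1.54 to 0.37) are the widest.

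ULK1 encodes the kinase that starts autophagy when nutrients run low. Its locus (ENSG00000177169, chromosome 12, 132379196 to 132407712, plus strand) stood at 5.00, 2.75 and 9.22 FPKM in the ZLD1039 tumours, against 10.0, 11.2 and 4.79 FPKM in the vehicle tumours. Each group held both low and high tumours. The log2 difference was -0.59 (standard error 0.41, 95% interval from -1.54 to 0.37, limma adjusted p = 0.88), and it lay between -0.95 (without ZLD1039 tumour 3) and -0.23 (without ZLD1039 tumour 2) with 1 tumour left out.

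The first start of ULK1 (132379196 to 132379657) was the leading one. It took 80.8, 0 and 75.0% of the summed starts in ZLD1039 tumours 1, 2 and 3, against 53.4, 89.0 and 85.0% in the vehicle tumours. ZLD1039 tumour 2 did not list this start, and without that tumour the difference of -23.9 percentage points (95% interval -82.8 to 35.1, limma adjusted p = 0.78) turned to 2.11. A start inside the gene (132402847 to 132403226) took 6.22, 55.7 and 16.3%, against 2.55, 3.30 and 5.53%, so that all ZLD1039 tumours lay above all vehicle tumours (difference 22.3 points, limma adjusted p = 0.76). The high share in ZLD1039 tumour 2 is of a total of only 1.47 FPKM: in abundance this start stood at 0.298, 0.816 and 0.908 FPKM, against 0.255, 0.276 and 0.265 FPKM. Without that tumour the difference was 7.46 points. A start at 132391035 to 132391469, named after its values were seen, took 5.49, 21.2 and 5.46%, against 2.65, 0.779 and 2.23%, again with ZLD1039 tumour 2 the highest (difference 8.82 points, limma adjusted p = 0.764). Groups did not overlap at 3 of the 22 tested start shares of the 7 genes. The rate over all start shares was not counted, so whether this is unusual is unknown. Another internal start (132403786 to 132404681) took 3.23, 5.17 and 1.05%, against 32.0, 2.99 and 4.69%, and vehicle tumour 1 was its only high value (difference -10.1 points, limma adjusted p = 0.76, and -0.69 points without that tumour). The intron at 132402099 to 132403042 was retained at 0, 0 and 49.1% in the ZLD1039 tumours and at 20.5, 22.1 and 0% in the vehicle tumours, which overlapped.

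BECN1 encodes Beclin 1, the scaffold of the lipid kinase complex that marks sites of autophagosome formation. Its locus (ENSG00000126581, chromosome 17, 40963673 to 40976281, minus strand) stood at 19.0, 10.4 and 17.8 FPKM in the ZLD1039 tumours, against 18.3, 19.98 and 18.2 FPKM in the vehicle tumours. ZLD1039 tumour 2 was low, and the other 5 tumours lay between 17.8 and 19.98 FPKM. The log2 difference was -0.29 (standard error 0.23, 95% interval from -0.83 to 0.25, limma adjusted p = 0.88), and it was -0.03 without ZLD1039 tumour 2 and -0.44 without ZLD1039 tumour 1.

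BECN1 used a pair of overlapping first exons that begin at the same position, 40976281, and differ in length at the inner edge. They are listed as separate start sites, but a difference between them is not one of start position. The shorter, of 109 bases (40976173 to 40976281), stood at 8.87, 9.16 and 12.3 FPKM in the ZLD1039 tumours, against 9.78, 10.1 and 7.95 FPKM in the vehicle tumours. The longer, of 131 bases (40976151 to 40976281), stood at 9.41, 0.27 and 4.80 FPKM, against 8.31, 8.52 and 7.44 FPKM. In ZLD1039 tumour 2 the shorter one was at the level of the other tumours, while the longer one was close to 0. In share of the starts the shorter took 46.7, 88.2 and 69.1%, against 53.3, 50.6 and 43.7% (difference 18.8 points, 95% interval -12.0 to 49.6, limma adjusted p = 0.76), and the difference was 8.67 points without ZLD1039 tumour 2 and 29.4 points without ZLD1039 tumour 1. The longer took 49.5, 2.63 and 26.9%, against 45.3, 42.7 and 40.9% (difference -16.6 points, limma adjusted p = 0.76), and the difference was -4.76 points without ZLD1039 tumour 2 and -28.2 points without ZLD1039 tumour 1.

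A minor exon of BECN1 lay at separate levels in the groups and is named after its values were seen. It was the only 1 of 16 tested exon and intron shares of the 7 genes without overlap, and the rate over all such shares was not counted. The exon of 126 bases, a multiple of 3 (40964249 to 40964374), was included at 2.66, 7.17 and 2.60% in the ZLD1039 tumours, against 0.20, 0.17 and 0.19% in the vehicle tumours. The abundance with the exon was 0.496, 0.709 and 0.442 FPKM, against 0.035, 0.034 and 0.028 FPKM, out of totals with and without it of 9.89 to 19.7 FPKM. Limma did not call it among the 13274 exons and introns tested (difference 3.96 points, 95% interval -1.76 to 9.68, adjusted p = 0.72). A start of 42 bases upstream of it (40965966 to 40966007) has the same FPKM in every tumour and is no second measurement. It took 2.61, 6.83 and 2.48% of the starts, against 0.19, 0.17 and 0.16%.

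ATG7 encodes the E1-like enzyme that activates both ATG12 and the LC3 family. Its locus (ENSG00000197548, chromosome 3, 11313995 to 11551813, plus strand) stood at 5.16, 6.62 and 6.92 FPKM in the ZLD1039 tumours, against 4.31, 4.66 and 4.67 FPKM in the vehicle tumours. It was the only 1 of the 7 whose groups did not overlap, and all ZLD1039 tumours lay above all vehicle tumours at 5.75% of the tested loci and below them at 5.2%. The means were 6.23 ± 0.94 and 4.55 ± 0.20 FPKM (SD, n = 3 each), and the log2 difference of 0.38 (standard error 0.17) did not pass (95% interval from -0.02 to 0.77, limma adjusted p = 0.88). It lay between 0.30 and 0.49 with any 1 tumour left out.

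In ATG7, an exon of 246 bases, a multiple of 3 (11323879 to 11324124), was listed as included by itself in ZLD1039 tumour 3, at 30.6%, and not in the other 5. A run of exons that ends with it (11322680 to 11324124) was listed at 0.036 FPKM in ZLD1039 tumour 2, against 0.015 and 0.007 FPKM in vehicle tumours 2 and 3, so the exon was present there at a low level. The difference of 10.2 points (95% interval -10.3 to 30.7, limma adjusted p = 0.72) is for the exon included by itself and rests on that tumour, and without it this measure is at 0 in both groups. The exon of 122 bases at 11374446 to 11374567 was included at 93.2, 100 and 95.3% in the ZLD1039 tumours and at 75.6, 100 and 97.0% in the vehicle tumours. The leading start, the first of the gene, took 91.6, 99.4 and 85.7% of the starts, against 71.0, 98.3 and 95.3%.

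ATG5 is joined to ATG12 and, with ATG16L1, directs LC3 to the membrane. Its locus (ENSG00000057663, chromosome 6, 106632351 to 106773666, minus strand) stood at 6.29, 8.82 and 8.38 FPKM in the ZLD1039 tumours, against 5.32, 7.22 and 7.26 FPKM in the vehicle tumours. The groups overlapped, since ZLD1039 tumour 1 lay below vehicle tumours 2 and 3. The log2 difference was 0.21 (standard error 0.20, 95% interval from -0.24 to 0.67, limma adjusted p = 0.88). It lay between 0.09 (without vehicle tumour 1) and 0.35 (without ZLD1039 tumour 1) with 1 tumour left out, and at 0.13 without ZLD1039 tumour 2. Its exon of 128 bases, not a multiple of 3 (106756239 to 106756366), was included at 71.6, 63.9 and 58.7% in the ZLD1039 tumours, against 73.0, 66.5 and 58.4% in the vehicle tumours. Inclusion spanned nearly the same range in the groups, with a difference of -1.24 points (95% interval -37.5 to 35.1, limma adjusted p = 0.995). The SD of this exon was 6.46 points in ZLD1039 and 7.30 points in vehicle tumours (n = 3 each). Limma pools variance over all exons and introns, so this interval is wider than the spread of the exon itself. The first start took 90.8 to 99.9% of the starts in ZLD1039 and 93.5 to 99.8% in vehicle tumours.

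ATG16L1 is the scaffold that ties the ATG12-ATG5 pair to the membrane. Its locus (ENSG00000085978, chromosome 2, 234160217 to 234204319, plus strand) stood at 10.4, 9.29 and 8.13 FPKM in the ZLD1039 tumours, against 11.6, 7.72 and 3.78 FPKM in the vehicle tumours. The ZLD1039 values lay inside the range of the vehicle values. The log2 difference was 0.34 (standard error 0.33, 95% interval from -0.43 to 1.11, limma adjusted p = 0.89), and it turned to -0.04 without vehicle tumour 3 and was 0.67 without vehicle tumour 1.

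The exon of 57 bases in ATG16L1, a multiple of 3 (234182367 to 234182423), was included at 36.4, 39.1 and 67.3% in the ZLD1039 tumours, against 15.7, 43.5 and 0.61% in the vehicle tumours. Vehicle tumour 2 lay among the ZLD1039 tumours, and the difference was 27.7 points (95% interval -16.9 to 72.3, limma adjusted p = 0.72). It was 17.8 points without ZLD1039 tumour 3 and 18.0 points without vehicle tumour 3. Transcripts that skip it together with the next small exon of 51 bases stood at 5.93, 4.78 and 2.63 FPKM, against 9.58, 4.18 and 3.53 FPKM. A pair of introns of ATG16L1 differed in mean retention by more than 10 points, each through 1 tumour. The intron at 234181698 to 234182367 was retained at 75.0% in vehicle tumour 3, on a total of 0.086 FPKM, and at under 1% in the other 5 (difference -25.3 points, limma adjusted p = 0.72, and -0.43 points without vehicle tumour 3). The intron at 234198616 to 234198894 was listed as spliced in ZLD1039 tumour 2 alone, with 46.8% retained there and 100% in the others (difference -17.7 points, limma adjusted p = 0.72), and its totals in vehicle tumours 2 and 3 were 0.034 and 0.073 FPKM. The same retained form, set against an intron whose start lies at 234198620, came to 13.7, 11.0 and 12.9%, against 15.6, 0.46 and 2.03%.

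MAP1LC3B encodes LC3B, the protein fixed to autophagosome membranes and the usual marker of them. Its locus (ENSG00000140941, chromosome 16, 87423376 to 87439322, plus strand) stood at 24.4, 24.1 and 22.0 FPKM in the ZLD1039 tumours, against 13.8, 24.5 and 8.37 FPKM in the vehicle tumours. The ZLD1039 tumours lay close together, vehicle tumour 2 was at their level, and vehicle tumours 1 and 3 were lower. The means were 23.5 ± 1.33 and 15.5 ± 8.20 FPKM (SD, n = 3 each), and the log2 difference was 0.68 (standard error 0.33, 95% interval from -0.08 to 1.45, limma adjusted p = 0.88). With 1 tumour left out the log2 difference lay between 0.33 (without vehicle tumour 3) and 1.05 (without vehicle tumour 2). A single start took 97.4 to 100% of the starts in every tumour, and the exon of 89 bases at 87433204 to 87433292 was skipped in nearly all transcripts, with at most 0.02% inclusion. A locus on the other strand, ENSG00000140948, shares 885 bases with it and stood at 2.13 to 5.13 FPKM.

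SQSTM1 encodes p62, which binds ubiquitin-marked cargo, is degraded with it and is also a target of the antioxidant factor NRF2. It was the most abundant of the 8 and had the highest coefficient of variation, at the 98.5th percentile of tested loci for its mean. The locus (ENSG00000161011, chromosome 5, 179233388 to 179262833, plus strand) stood at 295, 204 and 133 FPKM in the ZLD1039 tumours, against 74.1, 109.6 and 256 FPKM in the vehicle tumours. The groups overlapped: vehicle tumour 3 lay above ZLD1039 tumours 2 and 3. The means were 211 ± 81.1 and 147 ± 96.6 FPKM (SD, n = 3 each), and the log2 difference was 0.64 (standard error 0.47, 95% interval from -0.43 to 1.72, limma adjusted p = 0.88). It was 0.26 without vehicle tumour 1, 0.37 without ZLD1039 tumour 1 and 1.144 without vehicle tumour 3.

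A single start carried most of that spread. The start at 179247607 to 179248141 stood at 157, 112 and 29.6 FPKM in the ZLD1039 tumours, against 8.57, 17.5 and 141 FPKM in the vehicle tumours. The start downstream of it, at 179250565 to 179251087, stood at 114, 85.8 and 101 FPKM, against 62.7, 89.3 and 105 FPKM. The downstream start varied less than the other, which was high in ZLD1039 tumours 1 and 2 and vehicle tumour 3 and low in the remaining 3. The start at 179247607 took 53.3, 54.6 and 22.2% of the summed starts, against 11.6, 15.9 and 54.8% (difference 15.9 points, 95% interval -27.6 to 59.4, limma adjusted p = 0.80). The downstream start took 38.7, 42.0 and 75.4%, against 84.6, 81.4 and 40.9% (difference -17.0 points, limma adjusted p = 0.77). With 1 tumour left out the difference lay between 7.96 (without vehicle tumour 1) and 29.6 points (without vehicle tumour 3) for the start at 179247607, and between -31.0 (without vehicle tumour 3) and -9.16 points (without vehicle tumour 1) for the downstream start. The start farthest upstream, at 179233388 to 179233591, took 1.24 to 3.87% in ZLD1039 and 2.00 to 3.93% in vehicle tumours. A locus on the other strand, ENSG00000161013, shares 547 bases with the SQSTM1 locus and stood at 26.0 to 49.95 FPKM. Strand use in the counting is not given, so reads of overlapping loci, here and at MAP1LC3B, cannot be told apart.

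**Figure D3:**
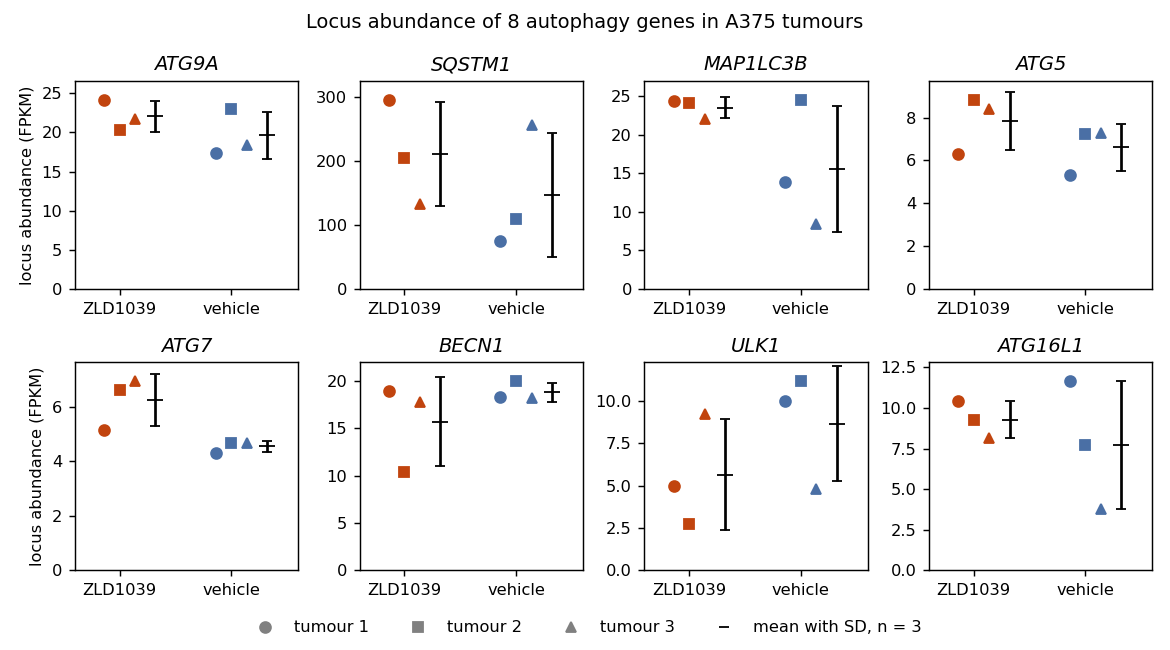
Each panel gives the locus abundance in FPKM of 1 gene, with a symbol for each tumour and the mean with SD beside it (n = 3), ZLD1039 left of vehicle. ATG7 is the only panel without overlap (5.16 to 6.92 against 4.31 to 4.67 FPKM), and SQSTM1 has the highest level and the widest spread in FPKM.

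Across the 8 genes the levels, in FPKM and so per length, ran in the order SQSTM1 (mean of the 6 tumours 179), ATG9A (20.8), MAP1LC3B (19.5), BECN1 (17.3), ATG16L1 (8.50), ATG5 (7.22), ULK1 (7.16) and ATG7 (5.39). SQSTM1 lay above the highest tumour of every other gene in each tumour, while ATG9A, MAP1LC3B and BECN1 overlapped one another, as did the 4 genes at the lower end. The coefficient of variation over the tumours was 48.8% for SQSTM1, 47.7% for ULK1, 34.9% for MAP1LC3B and 32.1% for ATG16L1, and 12.6 to 20.5% for the others, beside a median of 22.9% over the tested loci. The ATG9A locus had the lowest variation in abundance of the 8. Its place in the order rests on the starts of the downstream stretch: those of the upstream stretch alone averaged 15.4 FPKM in ZLD1039 and 13.5 FPKM in vehicle tumours, below the means of MAP1LC3B and BECN1 over the 6 tumours.

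**Figure D4:**
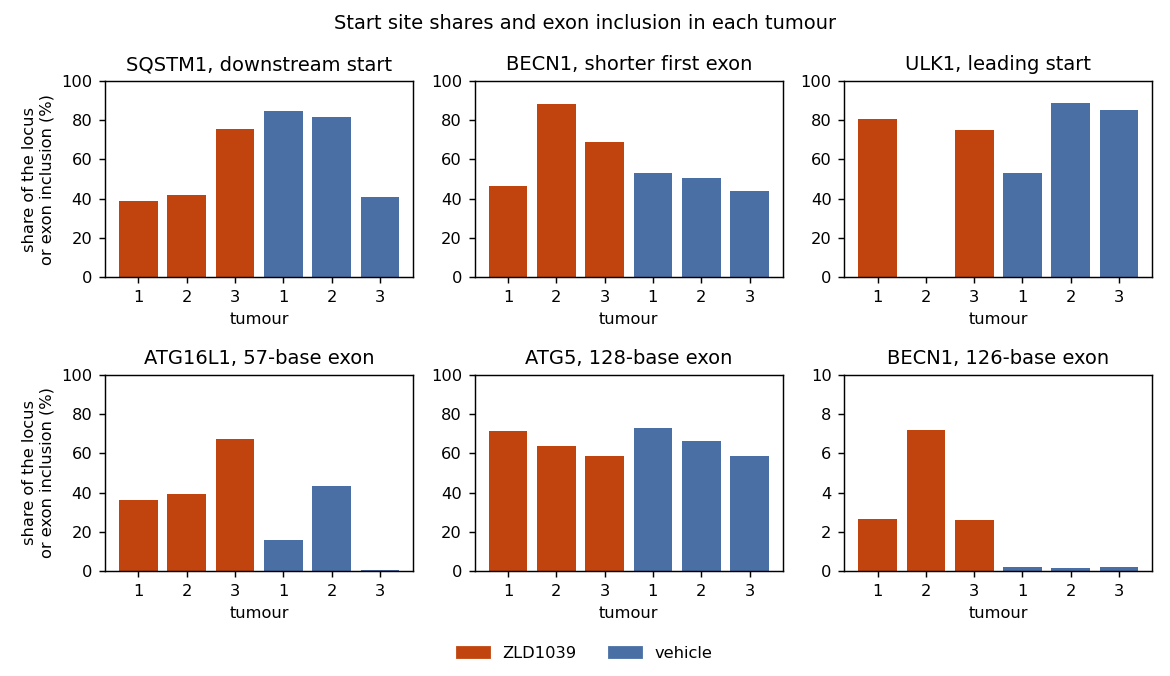
Bars give percent for each tumour, ZLD1039 left of vehicle: the upper row the share of summed starts taken by the leading start of SQSTM1, BECN1 and ULK1, the lower row the inclusion of an exon of ATG16L1, ATG5 and BECN1, the last on an axis that ends at 10%. The BECN1 start is the shorter of a pair of first exons that begin at the same position. The ULK1 start is at 0% in ZLD1039 tumour 2, and the ATG5 exon spans 58.7 to 71.6% in ZLD1039 and 58.4 to 73.0% in vehicle tumours.

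No single event of the 7 genes passed either. Of their 131 events 67 had a group mean of at least 1 FPKM, and limma called 0 of these, against 0.0362% of the 82894 events tested, and 0 had an unadjusted p under 0.05, against 4.7% of all (smallest limma adjusted p = 0.855). All ZLD1039 tumours lay above all vehicle tumours in 4 of the 67 (5.97%), each of them in ATG7 and a pair of them with identical values, beside 5.36% of all events tested. They lay below in 1 (1.49%), the abundance of the ULK1 start at 132403786 to 132404681, beside 4.97%. That start stood at 0.155, 0.076 and 0.059 FPKM in ZLD1039 and 3.21, 0.250 and 0.224 FPKM in vehicle tumours, though its shares overlapped. It reached the minimum mean in the vehicle group alone, through vehicle tumour 1, so it entered the count by the group where it is high. Among 16 exons and introns and 22 start sites of the 7 genes limma called 0 and 0 (smallest adjusted p = 0.719 and 0.764), where 0% of all exons and introns and 0% of all start sites were called. Of these, 0 and 0 had an unadjusted p under 0.05, beside 278 of the 13274 exons and introns and 530 of the 21321 start sites tested in all. Over the whole table the smallest adjusted p was 0.719 for exons and introns and 0.340 for start sites (limma on percent). The test on percent thus called nothing anywhere, and 0 calls here do not show that splicing was unchanged. On the ratio scale 598 of the 13274 exons and introns had an unadjusted p under 0.05 (limma).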

How the data were processed

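RNA from 6 A375 tumours was compared, 3 under ZLD1039 and 3 under vehicle, grouped by the sample titles. Per the file headers, the authors deposited 1 FPKM value for each transcript event and tumour. Per the submitters' processing notes, the tools include HTSeq 0.6.1 and bcl2fastq 2.17.1.14, with mm10, a mouse build, as the genome; which aligner, assembler and event caller were used is not given in the sources used here. Positions reach chromosome 22 and position 249214145 on chromosome 1, so they are human, against that build, and the human build is not named. Fragments could not be recovered from low values: only 80 of the 722 single-event loci were present in every tumour, and just 4 of those lay under 0.5 FPKM. Depth is therefore unknown, no counting error is given, and no count model was used.

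Events missing from a tumour were set to 0. The test was limma 3.58.1 in R 4.3.3, run on log2(FPKM + 1) with a trended prior variance, for each locus or event that reached 1 FPKM as the mean of either group. Adjustment was by Benjamini-Hochberg over the whole table, called at 0.05. This scale understates changes of low values. Inclusion and retention were taken as the part of the FPKM at an exon or intron that holds it; site shares were percentages of all starts, or all ends, in a locus. Shares whose total averaged 1 FPKM or more, with a total above 0 in all 6 tumours and a mean over 1% and under 99% were tested by limma in percent; no end site of the 8 genes met this. The locus fit was also run on simulated normal values, with changes larger than the differences of the 7 genes and no outlying tumour. That run cannot show whether the fit would find differences of their size. The genes, lists and locus measure were chosen with earlier results of these data known. Named by rule were the 8 genes, their leading starts, and exons, introns and sites of the 7 with a mean difference of at least 10 points. Other exons, introns and sites of the 7 that are printed fall outside this rule and are given as description. Alternatives were another pseudocount, no filter, quantile normalization, other locus measures, another minimum, a ratio scale, a replicate block and each tumour left out.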

Additional observations from a re-analysis of the deposited data

How the results depend on the processing

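The count of called loci, events, exons, introns and sites among the 7 genes was 0 under every alternative tried, 0 to 0 with 1 tumour left out. Over the whole table the calls were less stable: 2 loci became 0 to 2 and 30 events became 0 to 27 with 1 tumour left out, and 0 and 3 without a filter. Equal counts are not the same loci. The 2 loci of the main fit were higher in ZLD1039, while the 2 called without ZLD1039 tumour 1 and the 1 without vehicle tumour 1 were lower. Of the events, 22 were higher and 8 lower, against 0 and 9 without ZLD1039 tumour 3. For loci the count was 1 with a pseudocount of 0.1, quantile normalization or the largest event, and 0 with summed starts. On the ratio scale 4 exons and introns were called, against 0. The labels do not say whether the replicate numbers pair the tumours. Same-numbered tumours deviated with correlations of -0.03, 0.02 and -0.06, and differently numbered ones with -0.063 to 0.105. With 3 tumours in each group this shows no pairing but cannot exclude a shared batch. With a replicate block 0 loci and 0 events were called, among the 7 genes and over the whole table. Uncalled values turned in direction or went to 0 in these cases: ATG16L1 abundance, -0.036 (log2) without vehicle tumour 3 (-0.036 to 0.67 with 1 tumour left out); the ATG16L1 intron at 234198616, 0.17 on the ratio scale and 0 points without ZLD1039 tumour 2 (-26.6 to 0); the ATG7 exon at 11323879, 0 points without ZLD1039 tumour 3 (0 to 15.3); and the leading ULK1 start, 2.11 points without ZLD1039 tumour 2 (-38.3 to 2.11). The ATG9A form with the upstream start and the exon exceeded vehicle by 10.6 FPKM, and by 10.2 to 11.1 with 1 tumour left out. A setting that leaves out 1 tumour keeps the direction of groups that do not overlap by construction. Limits are the 3 tumours in each group, the unknown depth, and FPKM values that are split among overlapping transcripts by an estimate.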
